A study of Mus musculus with 6 samples.

Results

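The genes described here make, modify, carry and break down the lipids that fill the space between the dead cells of the epidermal surface. They were chosen as a list of 37 gene symbols covering ceramide synthesis, omega-hydroxylation, fatty acid elongation and lamellar body lipid transport, and all 37 were found among the 24453 symbols of the count files. RNA sequencing was run on 6 libraries of epidermal cells sorted from back skin of newborn mice at postnatal day 0. The sort kept EpCAM-positive, Sca1-positive cells with high α6-integrin, which selects interfollicular epidermis rich in its progenitors. 3 libraries carried the genotype label Control (C1, C2 and C3 here) and 3 the label Ring1a-/- Ring1b-/- (K1, K2 and K3). Both proteins, encoded by Ring1 and Rnf2, are ubiquitin ligases at the core of Polycomb repressive complex 1 (PRC1), and the series title gives the role of that complex in skin epithelium development as the subject. The driver and extent of the deletions, the full genotype of the controls and the number of animals behind a library are not given in the sources used here. The p-values therefore measure the spread between these libraries, which may be technical in part.

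In living epidermis, keratinocytes join serine and palmitoyl-CoA into a sphingoid base, attach a fatty acid to it to form ceramide, and store glucosylceramide and sphingomyelin in lamellar bodies that the granular cells secrete. The ceramides particular to skin carry ultra-long fatty acids that are elongated, hydroxylated at the omega end and esterified with linoleate. Oxidation of that linoleate lets the lipid attach to the protein envelope of the corneocyte. Inherited loss of many of these genes causes ichthyosis, a scaling disorder with a leaky skin barrier.

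The library totals were 18951665 to 31187270 counts. Levels are in CPM, a gene's counts scaled to 1000000 counts of a library after TMM adjustment of its size. The limit that a count of 0 allows, 3 counts, came to 0.0975 to 0.154 CPM depending on the library, and covers counting error only. The label of Ring1 was not borne out by its level in every library, at 30.9, 17.1 and 3.90 CPM in C1 to C3 and 1.66, 5.20 and 14.2 CPM in K1 to K3, so K3 lay above C3. Rnf2 had 43.2 to 63.2 CPM in the control-labelled and 55.4 to 64.1 CPM in the knockout-labelled libraries. Neither Ring1 nor Rnf2 was called lower (edgeR adjusted p = 0.389 and 0.575). Reads outside a deleted part would be counted, and whether the deletions were complete was not tested. Xist was at 1757, 6133 and 4736 CPM in C3, K1 and K2 and at 4.48 to 10.5 CPM in the others. Each direction below runs from the control-labelled to the knockout-labelled libraries. The second principal component of all tested genes, with 18.5% of the variance, set C1 and K1 apart from the rest. Basal keratinocyte markers were abundant everywhere, as the sort implies, with a summed level over 8 genes of 31609 to 45931 CPM in the control-labelled and 26932 to 30790 CPM in the knockout-labelled libraries.

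Most of the barrier lipid genes that changed were higher in the knockout-labelled epidermis. Of the 37 genes 35 had enough counts to be tested, 10 rose, 2 fell and 23 did not pass (edgeR quasi-likelihood test, Benjamini-Hochberg adjusted p under 0.05 over all 14890 tested genes). Across all tested genes 10.2% were called, 7.17% as higher and 2.98% as lower, against 34.3% of the tested lipid genes. The list was chosen with earlier results of these data known, so this contrast is a description only. For 20 of the 35 lipid genes no library overlapped between the groups, 18 with higher and 2 with lower levels, and 17.6% and 14.8% of all tested genes (32.4% together) were so placed. The median log2 fold change of the tested lipid genes was 0.60, against 0.00 for all tested genes, and 27 of the 35 values were positive. The 10 genes that rose were Cers2, Cers4, Degs1, Elovl4, Cyp4f39, Aloxe3, Abca12, Ugcg, Sult2b1 and Dgat2, and the 2 that fell were the ceramidases Acer2 and Asah1. 4 of these, Abca12, Cers4, Sult2b1 and Ugcg, were called whichever 1 library was left out. The counts moved with single libraries, and so did those of all genes. Without C1, C2 and C3 in turn 5, 6 and 4 lipid genes were called higher by edgeR, where the share of all genes was 5.81%, 5.27% and 4.12%. Without K1, K2 and K3 the count was 10, 5 and 5, against 6.26%, 4.22% and 4.92% of all genes. Lower calls numbered 1, 0 and 0 without C1, C2 and C3 (1.84%, 1.75% and 1.19% of all genes) and 2, 0 and 1 without K1, K2 and K3 (2.85%, 1.13% and 1.6%).

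Replicates 1 and 2 alone, a fit that leaves out the pair at odds with its Ring1 labels, kept Cers4 and Abca12 as higher, and no lipid gene was called lower, against 2.37% and 0.57% of all genes. Replicates 2 and 3 alone gave 15 higher and 3 lower, against 10.9% and 7.1%. Adding log2 Xist CPM to the model left Cers4, Cyp4f39, Abca12, Ugcg and Sult2b1 called higher and no lipid gene lower, against 4.27% and 1.17%. The fold changes of the 7 genes whose calls ended in that fit moved by at most 1.19 times: on the log2 scale they were 1.06 for Cers2, 0.74 for Degs1, 1.53 for Elovl4, 2.12 for Aloxe3, 1.35 for Dgat2, -0.87 for Acer2 and -0.92 for Asah1. DESeq2 called 12 higher and 2 lower, against 11% and 6.02%, and its size factors in edgeR gave 11 and 1, against 7.22% and 2.94%. An offset for GC content and length gave 9 and 1, against 6.84% and 3.14%. Without the count filter 11 and 2 were called, against 6.06% and 2.68%, and with at least 50 counts in 3 libraries 10 and 2, against 7.59% and 3.27%. The replicate number as a block gave 11 and 2, against 6.82% and 2.92%.

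**Figure D1:**
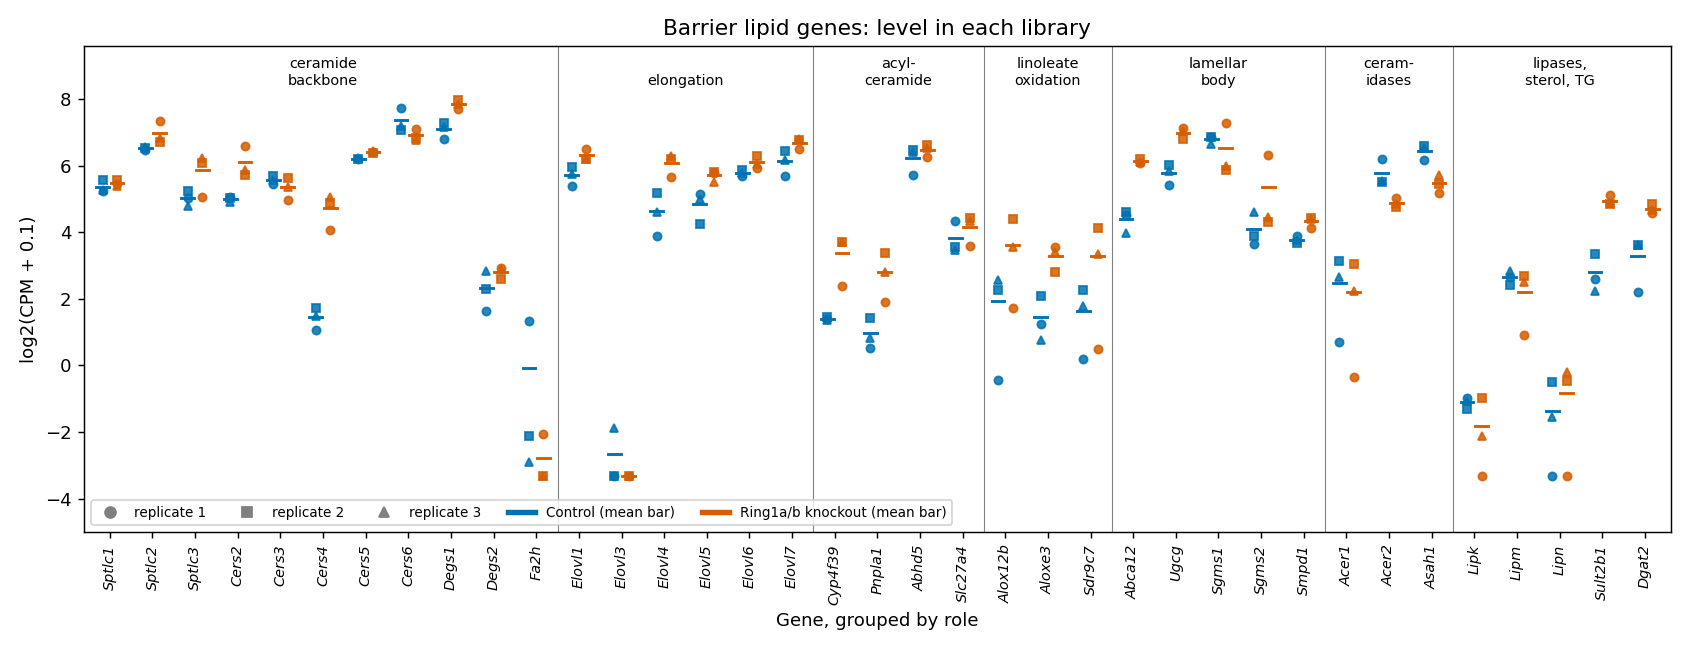
The level of all 37 genes is plotted as log2(CPM + 0.1) by gene on the horizontal axis, with 1 marker per library and a bar at each group's mean. Cers4, Cyp4f39, Abca12, Ugcg and Sult2b1 show every knockout-labelled library above every control-labelled library, while the ceramidases Acer2 and Asah1 show the opposite order.

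The promoters of Abca12, Cers4, Sult2b1 and Ugcg are shown because these genes were called whichever library was left out and because they differ widely in CpG dinucleotides, the bases whose density marks many promoters bound by Polycomb complexes. Each sequence is the 250 bases before the start site in RefSeq (GRCm38.p6), read on the strand of the gene, with every CpG in capitals. Sult2b1 has 2 starts among the RefSeq promoters used here, and both are given. Abca12 lies at chr1:71414911-71415160 on the minus strand, Cers4 at chr8:4493155-4493404 on the plus strand, Sult2b1 at chr7:45742479-45742728 and chr7:45759613-45759862 on the minus strand, and Ugcg at chr4:59189300-59189549 on the plus strand.
Abca12: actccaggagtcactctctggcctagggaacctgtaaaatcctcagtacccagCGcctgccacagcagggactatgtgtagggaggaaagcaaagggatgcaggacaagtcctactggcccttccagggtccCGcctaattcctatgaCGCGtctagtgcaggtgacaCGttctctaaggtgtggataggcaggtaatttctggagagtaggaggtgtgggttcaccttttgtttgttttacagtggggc
Cers4: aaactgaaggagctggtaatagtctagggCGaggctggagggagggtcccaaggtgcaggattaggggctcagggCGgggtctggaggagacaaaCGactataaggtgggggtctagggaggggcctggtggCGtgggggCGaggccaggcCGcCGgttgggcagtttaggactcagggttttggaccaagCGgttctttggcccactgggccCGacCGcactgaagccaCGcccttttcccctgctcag
Sult2b1, downstream start: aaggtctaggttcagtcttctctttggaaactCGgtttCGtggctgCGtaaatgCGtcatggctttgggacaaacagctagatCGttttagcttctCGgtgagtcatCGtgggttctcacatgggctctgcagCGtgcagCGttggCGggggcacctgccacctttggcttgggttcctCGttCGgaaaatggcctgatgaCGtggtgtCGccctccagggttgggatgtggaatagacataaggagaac
Sult2b1, upstream start: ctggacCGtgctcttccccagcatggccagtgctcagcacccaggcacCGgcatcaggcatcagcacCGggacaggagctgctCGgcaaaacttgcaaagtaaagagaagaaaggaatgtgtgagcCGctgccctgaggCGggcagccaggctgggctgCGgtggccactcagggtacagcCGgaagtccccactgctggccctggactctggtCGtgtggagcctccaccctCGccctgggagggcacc
Ugcg: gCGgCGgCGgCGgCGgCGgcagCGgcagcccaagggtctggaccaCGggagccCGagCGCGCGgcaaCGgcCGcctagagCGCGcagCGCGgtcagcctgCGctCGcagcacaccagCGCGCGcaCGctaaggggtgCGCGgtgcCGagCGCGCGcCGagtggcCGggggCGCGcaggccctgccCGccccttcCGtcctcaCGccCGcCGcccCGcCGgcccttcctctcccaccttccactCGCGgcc

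These 250 bases held 5 CpG in Abca12, 11 in Cers4, 14 and 10 in Sult2b1 and 43 in Ugcg. By GENCODE M21 on GRCm38, the genes Cers4, Sult2b1 and Ugcg begin farther upstream, at 4493026, 45784669 and 59189257. Their windows lie inside those gene spans, so their CpG counts describe the RefSeq starts only. A promoter of 300 bases (250 before and 50 after the start) was found for 31 of the 37 genes. The genes Aloxe3, Asah1, Dgat2, Elovl3, Fa2h and Lipk had none in the table. Taking for each gene the start with the most CpG, the ratio of observed to expected CpG exceeded 0.6 in 17 of the 31 (54.8%), in 5 of the 8 that rose (62.5%) and in 11 of the 22 that did not pass (50%). The same held for 71.5% of 11306 tested genes with a promoter, 74% of those called higher and 53.5% of those called lower. The motif GGGCGG, a GC box, stood on either strand in 17 of the 31 promoters (54.8%) and in 65% of those of all tested genes. The motif AACCGGTT, the core bound by grainyhead factors, stood in 0 of the 31 and in 0.257% of those of tested genes. A second start of Sgms1, with fewer CpG, held AACCGGTT. A match or its lack describes the window only.

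Of 11 genes for the ceramide backbone and its acyl chains 3 rose, 7 did not pass and 1 was too low to test. Over all tested genes 7.17% were called higher. The genes of the first step were expressed in every library and did not pass. Sptlc1, Sptlc2 and Sptlc3 encode the long-chain subunits of serine palmitoyltransferase, which makes the sphingoid base. Sptlc1 was at 37.7, 47.4 and 38.6 CPM in C1 to C3 and at 43.3, 47.6 and 41.6 CPM in K1 to K3, with overlapping groups and a log2 fold change of 0.10 ± 0.19 (SE, 3 libraries per group). Sptlc2 was at 87.9, 92.2 and 94.6 against 161, 105 and 114 CPM, with no overlap, and did not pass (log2 fold change 0.47 ± 0.20, edgeR adjusted p = 0.193). Sptlc3, whose enzyme also makes bases of other chain lengths, was at 32.3, 37.9 and 27.8 against 33.2, 68.1 and 75.1 CPM, so that K1 lay within the control-labelled range. Its log2 fold change of 0.85 ± 0.31 did not pass (edgeR adjusted p = 0.128), but reached 1.14 without K1 (edgeR adjusted p = 0.0129).

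Of the 5 ceramide synthases, which attach the fatty acid, 2 rose. Cers4, which prefers long and very long acyl chains, showed the largest fold change of the 35 tested genes. Cers4 was at 1.99, 3.23 and 2.70 CPM in C1 to C3, against 16.6, 29.3 and 32.9 CPM in K1 to K3. The lowest knockout-labelled library was thus well above the highest control-labelled one, and the log2 fold change was 3.31 ± 0.36 (9.95-fold, edgeR adjusted p = 0.00125). Cers2, the broadly expressed synthase of very long chains, rose from 33.5, 32.5 and 29.7 to 97.1, 52.5 and 58.9 CPM (log2 fold change 1.12 ± 0.26, edgeR adjusted p = 0.0273). K1 was the highest library for Cers2, and the call ended without C1, C2 or C3 (edgeR adjusted p = 0.0663 to 0.106). Cers3, the synthase of the ultra-long ceramides of the skin barrier, did not pass, at 43.4, 51.5 and 47.2 against 31.4, 49.5 and 41.0 CPM with overlapping groups (log2 fold change -0.22 ± 0.22, edgeR adjusted p = 0.591). Cers5 and Cers6, which prefer palmitate, had log2 fold changes of 0.20 ± 0.16 and -0.44 ± 0.22 and did not pass (edgeR adjusted p = 0.493 and 0.258). Cers5 was at 73.5 to 74.3 CPM in the control-labelled and 82.6 to 86.8 CPM in the knockout-labelled libraries. Cers6 was at 214, 133 and 145 against 138, 115 and 110 CPM, with C1 high and the groups overlapping.

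Degs1, the desaturase that completes ceramide, rose from 111, 157 and 142 CPM to 209, 251 and 229 CPM. No library overlapped between the groups, and the log2 fold change was 0.75 ± 0.18 (edgeR adjusted p = 0.0362). That call ended without C1, C2, C3, K2 or K3 (edgeR adjusted p = 0.0605 to 0.134). Degs2, which adds a hydroxyl group to make phytoceramides, was at 3.001, 4.85 and 6.98 against 7.44, 5.97 and 7.31 CPM and did not pass (log2 fold change 0.48 ± 0.40). Fa2h, the fatty acid 2-hydroxylase, was too low to be tested, at 2.40, 0.131 and 0.0342 against 0.138, 0 and 0 CPM. C1 was the highest library for Fa2h.

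The 5 tested fatty acid elongases of the list had positive fold changes and groups that did not overlap, though only Elovl4 passed. Of all tested genes 17.6% were higher without overlap. Elovl2, an elongase outside the list, had overlapping groups and did not pass (log2 fold change 0.42 ± 0.87, edgeR adjusted p = 0.823). Elovl4 makes the ultra-long fatty acids of acylceramide. It was at 14.7, 36.0 and 24.1 CPM in C1 to C3 and at 50.3, 74.1 and 78.8 CPM in K1 to K3, with a log2 fold change of 1.44 ± 0.33 (edgeR adjusted p = 0.0288). Its call ended without C1, C3, K2 or K3 (edgeR adjusted p = 0.0538 to 0.102). C1 and K1 were the lowest libraries of their groups. Elovl1, which makes very long saturated chains, was at 41.5, 62.2 and 53.4 against 91.3, 73.7 and 73.3 CPM (log2 fold change 0.60 ± 0.21, edgeR adjusted p = 0.113). Elovl5, an elongase of polyunsaturated chains, was at 35.6, 18.8 and 32.1 against 55.2, 56.4 and 45.7 CPM (log2 fold change 0.86 ± 0.26, edgeR adjusted p = 0.0760). DESeq2 called Elovl5 higher (DESeq2 adjusted p = 0.0255). Elovl7 was at 51.1, 87.5 and 72.1 against 90.3, 108 and 112 CPM, and Elovl6, which lengthens palmitate, at 51.4, 58.5 and 55.2 against 60.5, 79.1 and 66.4 CPM. Their log2 fold changes of 0.56 ± 0.23 and 0.32 ± 0.18 did not pass (edgeR adjusted p = 0.168 and 0.330). Elovl3, an elongase of sebaceous gland and brown fat, had counts in C3 alone, at 0.171 CPM, and was not tested.

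Of the 4 genes of omega-hydroxylation and acylceramide assembly, 1 rose and 3 did not pass, where 7.17% of all tested genes were called higher. Cyp4f39, the mouse fatty acid omega-hydroxylase of acylceramide synthesis, had 2.51, 2.62 and 2.46 CPM in C1 to C3 and 5.12, 12.9 and 13.1 CPM in K1 to K3. The control-labelled libraries were close together, and K2 and K3 stood farther above them than K1 did. The log2 fold change was 2.03 ± 0.44 (edgeR adjusted p = 0.0208), and the call ended without C1, C2, C3, K2 or K3 (edgeR adjusted p = 0.0586 to 0.0880). Pnpla1, the transacylase that puts linoleate on the omega-hydroxyl group, lay just outside the threshold, at 1.35, 2.58 and 1.68 against 3.67, 10.3 and 6.86 CPM. The groups did not overlap, and the log2 fold change was 1.89 ± 0.51 (edgeR adjusted p = 0.0507). DESeq2 called Pnpla1 higher (DESeq2 adjusted p = 0.00352), as did edgeR with DESeq2 size factors (edgeR adjusted p = 0.0499). Abhd5, the cofactor of Pnpla1 and of the triglyceride lipase Pnpla2, was at 52.4, 88.4 and 84.5 against 77.4, 97.6 and 92.9 CPM. Slc27a4, an acyl-CoA synthetase and fatty acid transporter needed for the barrier, was at 19.96, 11.6 and 10.9 against 11.9, 21.6 and 19.98 CPM. Both overlapped between groups, with log2 fold changes of 0.25 ± 0.23 and 0.33 ± 0.34 (edgeR adjusted p = 0.566 and 0.610).

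The 3 enzymes that oxidise the linoleate of acylceramide had similar fold changes and unlike spreads. Aloxe3, a hydroperoxide isomerase, rose from 2.29, 4.11 and 1.61 to 11.6, 6.90 and 10.6 CPM (log2 fold change 1.87 ± 0.45, edgeR adjusted p = 0.0334). Its groups did not overlap, but the call ended without C1, C3, K1, K2 or K3 (edgeR adjusted p = 0.0585 to 0.106). Alox12b, the lipoxygenase that acts before it and lies beside it on chromosome 11, was at 0.638, 4.68 and 5.88 against 3.22, 21.2 and 11.8 CPM. Sdr9c7, the dehydrogenase that acts after them, was at 1.05, 4.72 and 3.32 against 1.32, 17.4 and 10.1 CPM. In both genes C1 and K1 were the lowest libraries of their groups and K1 fell inside the control-labelled range. The log2 fold changes of 1.69 ± 0.83 and 1.66 ± 0.85 did not pass (edgeR adjusted p = 0.257 and 0.275). With replicates 2 and 3 alone they were 1.64 and 1.77 and passed (edgeR adjusted p = 0.0177 and 0.0170), in a fit that called 2694 genes against 1512.

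Among the genes of the lamellar body, the transporter and the glucosyltransferase rose. Abca12, the lipid transporter that loads glucosylceramide into lamellar bodies and whose loss causes harlequin ichthyosis, was at 22.7, 24.5 and 15.7 CPM in C1 to C3. In the libraries K1 to K3 it reached 67.7, 73.9 and 69.7 CPM, a narrow range above every control-labelled library. The log2 fold change was 1.75 ± 0.22 (3.36-fold, edgeR adjusted p = 0.00229), and it lay between 1.57 and 1.88 when any 1 library was left out. Ugcg, which makes glucosylceramide, rose from 42.5, 65.5 and 57.2 to 139, 113 and 131 CPM (log2 fold change 1.21 ± 0.21, edgeR adjusted p = 0.00834). The Ugcg call ended with replicates 1 and 2 alone (edgeR adjusted p = 0.110), where the log2 fold change was still 1.21. Smpd1, the acid sphingomyelinase that turns secreted sphingomyelin into ceramide, was at 14.6, 12.8 and 13.4 against 17.3, 21.5 and 21.1 CPM. Its groups did not overlap, and the log2 fold change of 0.55 ± 0.22 did not pass (edgeR adjusted p = 0.174).

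In both sphingomyelin synthases K1 stood apart from K2 and K3. Sgms1 was at 116, 115 and 100 CPM in C1 to C3 and at 155, 57.9 and 63.7 CPM in K1 to K3. K1 was above every control-labelled library and K2 and K3 below them, with a log2 fold change of -0.26 ± 0.35 (edgeR adjusted p = 0.713). Without K1 it was -0.86, and the gene was called lower (edgeR adjusted p = 0.0193). Sgms2 was at 12.4, 14.7 and 24.1 against 80.6, 19.6 and 21.8 CPM. K2 and K3 lay inside the control-labelled range, and the log2 fold change of 1.25 ± 0.54 did not pass (edgeR adjusted p = 0.200).

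Of the 3 ceramidases in the list, which break ceramide down, 2 fell, where 2.98% of all tested genes were called lower. The ceramidases Acer3 and Asah2, outside the list, did not pass and went in opposite directions. Acer3 was higher without overlap (mean 44.7 against 65.2 CPM, log2 fold change 0.55 ± 0.21, edgeR adjusted p = 0.153). Asah2 was lower without overlap (log2 fold change -0.68 ± 0.21, edgeR adjusted p = 0.0803). Asah1, the acid ceramidase of lysosomes, was at 72.02, 97.2 and 92.9 CPM in C1 to C3, against 35.9, 44.0 and 53.2 CPM in K1 to K3. Every knockout-labelled library was below every control-labelled one, and the log2 fold change was -0.98 ± 0.22 (edgeR adjusted p = 0.0232). The call ended without C2, C3 or K2 (edgeR adjusted p = 0.0825 to 0.0941). Acer2, an alkaline ceramidase of the Golgi, fell from 73.9, 45.1 and 46.4 to 32.6, 26.9 and 28.6 CPM (log2 fold change -0.91 ± 0.24, edgeR adjusted p = 0.0482). It lay close to the threshold and was not called without any 1 library (edgeR adjusted p = 0.0603 to 0.156), with DESeq2 size factors (edgeR adjusted p = 0.0509) or with an offset for GC content and length (edgeR adjusted p = 0.0556). Acer1, the alkaline ceramidase of differentiated keratinocytes, was at 1.54, 8.70 and 6.26 against 0.692, 8.19 and 4.58 CPM. C1 and K1 were again the lowest, the groups overlapped, and the log2 fold change was -0.30 ± 0.85 (edgeR adjusted p = 0.876).

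**Figure D2:**
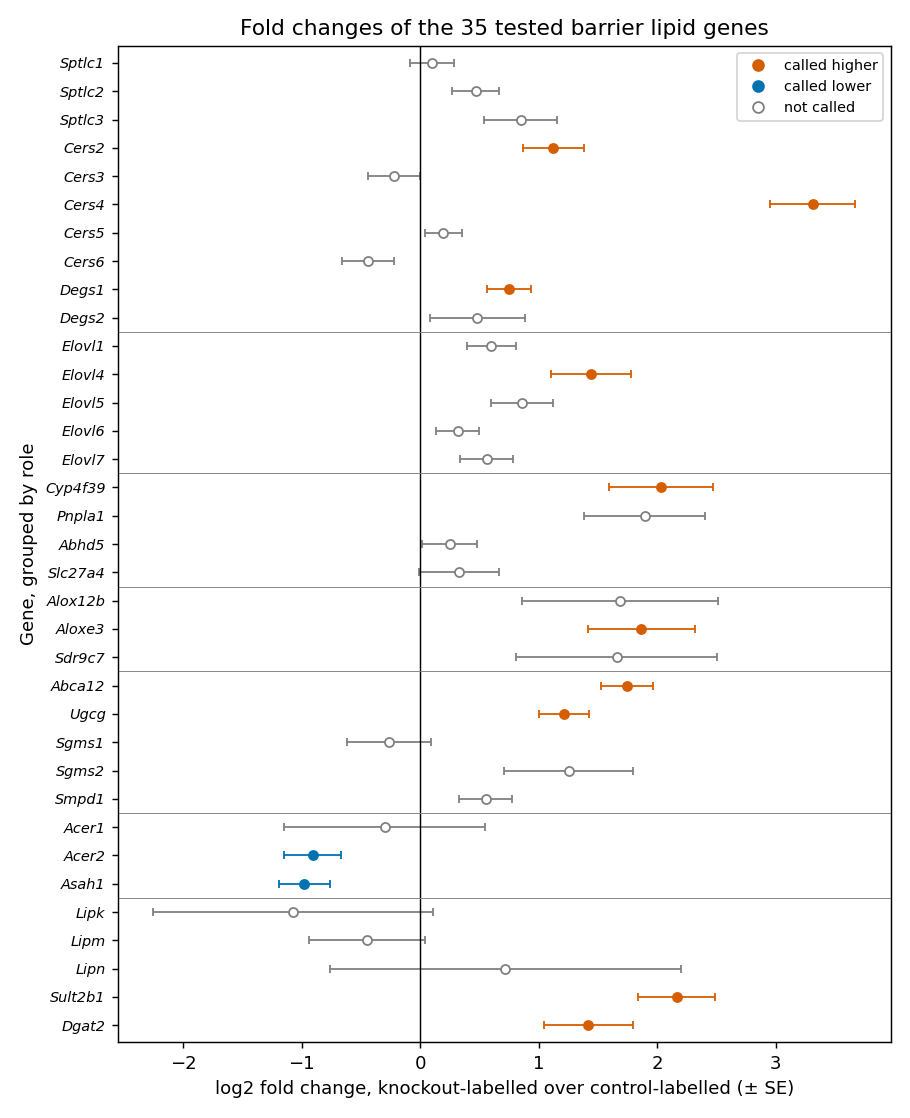
The log2 fold change (horizontal axis, knockout-labelled over control-labelled) of the 35 tested genes is drawn with its SE, grouped by role, with filled points for genes that passed. Cers4 stands farthest to the right at 3.31, the 5 tested elongases lie between 0.32 and 1.44, and the 3 ceramidases lie between -0.98 and -0.30.

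The genes of sterol sulfation and triglyceride synthesis rose, and none of the 3 epidermal lipases passed. Sult2b1, which makes cholesterol sulfate, had 6.002, 10.1 and 4.58 CPM in C1 to C3 and 34.6, 28.6 and 29.1 CPM in K1 to K3. The groups were far apart, with a log2 fold change of 2.16 ± 0.32 (4.48-fold, edgeR adjusted p = 0.00481), and the call ended with replicates 1 and 2 alone (log2 fold change 1.97, edgeR adjusted p = 0.0528). Dgat2, the acyltransferase of the last step to triglyceride, rose from 4.501, 12.3 and 12.2 to 23.6, 28.6 and 25.5 CPM (log2 fold change 1.42 ± 0.38, edgeR adjusted p = 0.0477). Its call ended without C2, C3, K1, K2 or K3 (edgeR adjusted p = 0.0680 to 0.138) and with the offset for GC content and length (edgeR adjusted p = 0.0725).

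Lipk, Lipm and Lipn, acid lipases of the late granular layer, are neighbours on chromosome 19. Lipm was at 6.23, 5.24 and 7.12 against 1.80, 6.28 and 5.56 CPM, and K1 was the lowest library. Lipk was at 0.306 to 0.413 against 0 to 0.412 CPM, and Lipn at 0 to 0.612 against 0 to 0.780 CPM. None of the 3 passed (edgeR adjusted p = 0.636 to 0.825).

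The order of the levels was compared per kilobase of exons, since longer transcripts collect more reads. Degs1 was first in both groups, at 66.8 ± 11.5 CPM per kb (mean ± SD, n = 3) in the control-labelled and 112 ± 10.2 in the knockout-labelled libraries. In the control-labelled libraries it was followed by Asah1 (31.5 ± 4.85), Elovl1 (27.0 ± 5.37), Cers5 (25.3 ± 0.144), Sgms1 (24.1 ± 1.93), Abhd5 (23.8 ± 6.25) and Cers6 (23.3 ± 6.21). From Asah1 to Cers6, each mean differed from the next by less than the larger SD of the pair. In the knockout-labelled libraries Degs1 was followed by Elovl1 (40.9 ± 5.30), Ugcg (31.8 ± 3.42) and Cers2 (31.4 ± 10.9), and Asah1 was at position 15. Ugcg moved from position 12 to 3, Elovl4 from 18 to 8 and Sult2b1 from 23 to 16. Enzymes of acylceramide and its oxidation had low levels: Cyp4f39, Aloxe3 and Pnpla1 were at 0.967, 0.884 and 0.417 CPM per kb in the control-labelled and at 3.96, 3.22 and 1.55 in the knockout-labelled libraries. In all, 33 of the 37 genes had a mean above 1 CPM in both groups, the others being Fa2h, Elovl3, Lipk and Lipn.

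**Figure D3:**
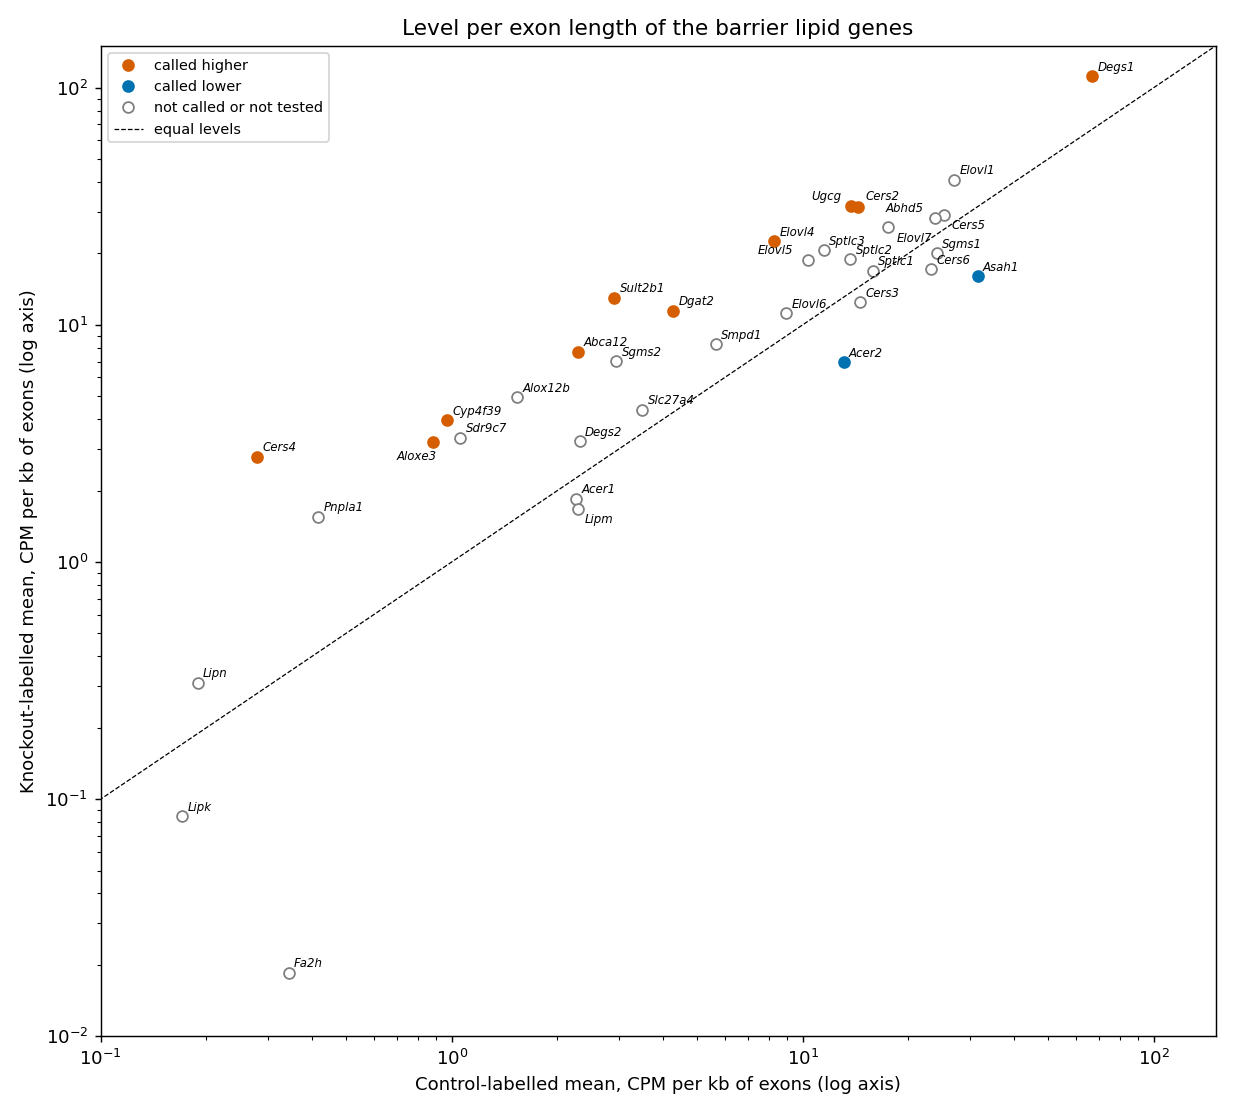
The mean level per kb of exons in the knockout-labelled libraries (vertical log axis) is plotted against that in the control-labelled libraries (horizontal log axis) for 36 genes, without Elovl3, which had no counts in the knockout-labelled libraries. Degs1 sits highest at 66.8 and 112 CPM per kb, and Cers4 lies farthest above the dashed line of equal levels, at 0.279 and 2.77.

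The genes also varied within the groups, and part of that variation followed the replicate number. In 14 of the 35 tested genes (40%) the replicate 1 library was the lowest of its group in both groups, against 19.6% of all tested genes. These were Cers3, Cers4, Degs1, Elovl4, Elovl6, Elovl7, Pnpla1, Abhd5, Alox12b, Sdr9c7, Acer1, Asah1, Lipn and Dgat2. In 4 (Cers2, Cers6, Sgms1 and Acer2) it was the highest in both, against 18.7% of all tested genes. Markers of suprabasal and granular keratinocytes varied likewise. In 14 of 19 tested markers (73.7%) C1 and K1 were the lowest, among them Krt10, a keratin of suprabasal cells, at 593, 2056 and 1254 against 322, 1506 and 1600 CPM. Cdsn, the corneodesmosin of granular cells, was at 0.525, 9.35 and 8.38 against 3.60, 32.3 and 15.9 CPM. Between the groups, 21.1% of these 19 markers were called, against 10.2% of all tested genes. Of the 19 markers 3 rose (Krtdap, Klk5 and Klk7), 1 fell (Tgm3) and 15 did not pass. Their median log2 fold change was 0.82, with 11 of 19 values positive, against the 0.60 of the lipid genes and 0.00 of all tested genes. The summed level of the list was 2639 to 5946 CPM in the control-labelled and 2051 to 5148 CPM in the knockout-labelled libraries. Of the 8 basal markers 1 fell (Col17a1, log2 fold change -0.74 ± 0.17, edgeR adjusted p = 0.0278) and 7 did not pass. Their share called was 12.5%, against 10.2% of all tested genes. Of the 8 values 6 were negative, with a median log2 fold change of -0.34. Krt15 had no overlap and did not pass (log2 fold change -1.07 ± 0.38, edgeR adjusted p = 0.126). The part of the share of differentiated cells in the lipid gene results was not tested, and in bulk RNA fewer cells of a type and less RNA per cell cannot be told apart.

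**Figure D4:**
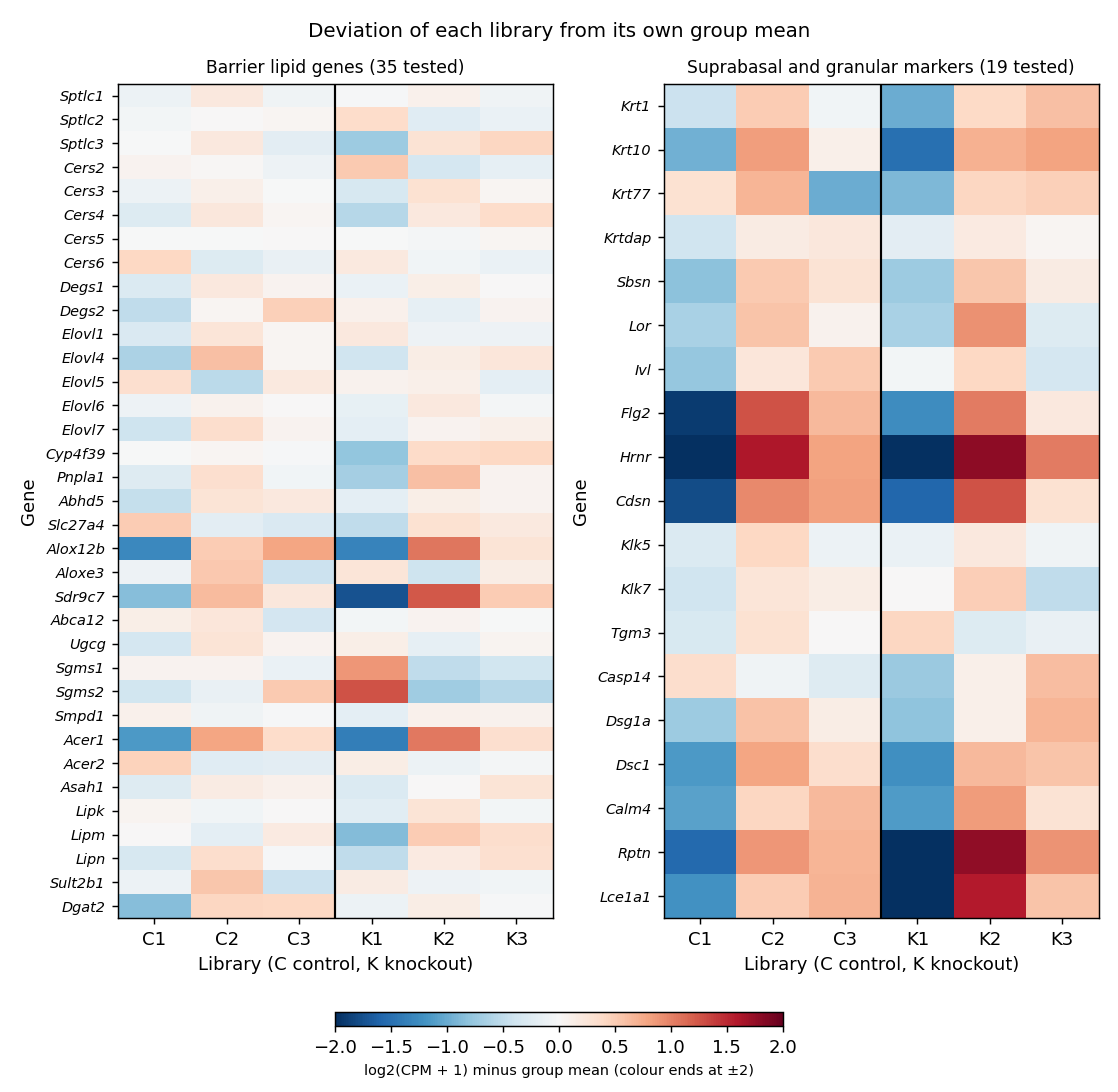
Colours give log2(CPM + 1) of each library minus its own group's mean, with libraries on the horizontal axis and genes on the vertical axis, for the 35 tested lipid genes (left) and 19 tested suprabasal and granular markers (right). Alox12b, Sdr9c7 and Acer1 are low in C1 and K1, as are Flg2, Hrnr and Cdsn, while Sgms1 and Sgms2 are high in K1.

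Sets of markers of other cells that could carry lipid genes were also read. Over all tested genes 7.17% were called higher and 2.98% lower. Sebocyte markers summed to 33.7 to 49.6 CPM in the control-labelled and 39.2 to 48.6 CPM in the knockout-labelled libraries, 0 of 6 tested (10 listed) were called by edgeR, and 1 had an unadjusted p under 0.05. The sebocyte genes Awat1, Dgat2l6 and Mc5r had at most 0.131, 0.205 and 0.463 CPM in any library, but others of the list were expressed. Soat1 was higher without overlap (mean 9.72 against 18.2 CPM, log2 fold change 0.91). Awat2 was lower without overlap (mean 3.11 against 1.26 CPM, log2 fold change -1.29). Plin2 was at 9.06 to 22.5 CPM over all libraries, with overlapping groups. Adipocyte markers summed to 12.1 to 33.6 against 5.82 to 25.7 CPM, with 0 of 7 tested (11 listed) called and 0 at an unadjusted p under 0.05 (edgeR). Hair follicle markers summed to 373 to 766 against 308 to 679 CPM, and 4 fell (Krt25, Krt27, Krt71 and Lef1) and 1 rose (Krt85) of 11 tested. Merkel cell markers summed to 0.612 to 2.63 against 27.6 to 77.0 CPM, with 3 of 3 tested higher (Krt18, Isl1 and Sox2), while Krt8, Krt20 and Atoh1 were too low to be tested. The part of the Merkel cell and hair follicle genes in the lipid gene results was not tested. Markers of fibroblasts, melanocytes, immune cells, endothelial cells and muscle had 0 called of 6, 4, 3, 4 and 3 tested (edgeR), with 2, 2, 0, 0 and 0 at an unadjusted p under 0.05.

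No source used here states the strand setting of the counting, so reads of genes that overlap on the opposite strand cannot be told apart. By GENCODE M21 on GRCm38, Ankrd22 covers 45% of the exon bases of Lipm, an antisense RNA 30.1% of those of Abhd5, an antisense RNA 14.4% of those of Pnpla1 and a receptor pseudogene 9.35% of those of Cers4. The share was 8.33% for Lmtk3 over Sult2b1, and Abca12 and Ugcg had no exonic overlap.

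Other genes of lipid metabolism were read from lists beside the 37 genes. Of 25 tested further sphingolipid genes (27 listed) 3 rose, 1 fell and 21 did not pass, with a median log2 fold change of 0.12. That was 16% called, against 10.2% of all tested genes, 7.17% as higher and 2.98% as lower. B4galt5 and B4galt6, the lactosylceramide synthases that act on the product of Ugcg, rose from 6.15, 3.50 and 5.58 to 59.0, 27.2 and 36.0 CPM and from 6.86, 2.49 and 6.23 to 38.5, 24.4 and 16.6 CPM. Their log2 fold changes were 3.002 ± 0.36 and 2.35 ± 0.45 (edgeR adjusted p = 0.00189 and 0.0137), and neither call ended when 1 library was left out. Psap, the precursor of the saposins that lysosomal ceramide and glucosylceramide breakdown needs, fell from 386, 225 and 260 to 123, 120 and 147 CPM (log2 fold change -1.16 ± 0.23, edgeR adjusted p = 0.0144). The Psap call ended without K2 (edgeR adjusted p = 0.0674). Sgpp2, a sphingosine phosphate phosphatase, was named after its value was seen, at 1.51 ± 0.825 against 6.69 ± 2.02 CPM (mean ± SD, n = 3; edgeR adjusted p = 0.0336), and its call ended without C1, C3, K1, K2 or K3 (edgeR adjusted p = 0.0744 to 0.109).

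Of 25 tested genes of fatty acid synthesis, elongation and desaturation (33 symbols listed, 29 in the files) 3 rose, 1 fell and 21 did not pass. The share called was 16%, against 10.2% of all tested genes. Fads2 and Fads1, the desaturases of polyunsaturated fatty acids, rose from 0.900, 0.962 and 0.274 to 11.9, 8.86 and 7.86 CPM and from 19.5, 25.3 and 26.3 to 44.8, 64.3 and 52.3 CPM. Their log2 fold changes were 3.74 ± 0.55 and 1.18 ± 0.22 (edgeR adjusted p = 0.00449 and 0.0124), and the Fads1 call ended without K2 (edgeR adjusted p = 0.0576). Pnpla2, the triglyceride lipase that Abhd5 activates, rose from 14.4, 8.74 and 16.5 to 54.6, 30.2 and 38.8 CPM (log2 fold change 1.64 ± 0.32, edgeR adjusted p = 0.0137). Acsbg1, an acyl-CoA synthetase named after its value was seen, fell from 59.2, 54.8 and 48.3 to 3.91, 13.9 and 15.4 CPM (log2 fold change -2.29 ± 0.45, edgeR adjusted p = 0.0145).

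Of 13 tested genes of the lipid envelope and lamellar body outside the 37 (14 listed) 4 rose, 0 fell and 9 did not pass. The share called was 30.8%, against 10.2% of all tested genes, and 1 gene was lower at an unadjusted p under 0.05 (edgeR). Tgm1, the transglutaminase that builds the envelope, rose from 15.6, 17.7 and 11.8 to 108, 47.9 and 44.3 CPM (log2 fold change 2.15 ± 0.37, edgeR adjusted p = 0.00841). Nipal4, an ichthyosis gene of acylceramide metabolism, rose from 18.1, 20.6 and 14.3 to 48.4, 36.9 and 38.9 CPM (log2 fold change 1.23 ± 0.23, edgeR adjusted p = 0.0114), and its call ended without C3 (edgeR adjusted p = 0.0553). Fabp5, a fatty acid binding protein of keratinocytes, rose from 13.5, 36.5 and 29.2 to 47.3, 143 and 127 CPM (edgeR adjusted p = 0.0305), and its call ended without C1, C3, K2 or K3 (edgeR adjusted p = 0.0776 to 0.0976). Ephx3, an epoxide hydrolase named after its value was seen, also rose (7.29 ± 3.36 against 21.5 ± 3.77 CPM, mean ± SD, n = 3; edgeR adjusted p = 0.0381), and its call ended without C2, C3, K1, K2 or K3 (edgeR adjusted p = 0.0572 to 0.127).

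Of 27 tested regulators that act on epidermal lipid and differentiation genes (29 listed) 4 rose, 3 fell and 20 did not pass. Together 25.9% were called, against 10.2% of all tested genes. Grhl3, the grainyhead factor of barrier formation, rose from 29.7, 65.2 and 67.5 to 175, 218 and 209 CPM (log2 fold change 1.89 ± 0.31, edgeR adjusted p = 0.00652). Zfp750, a driver of terminal differentiation, rose from 184, 170 and 141 to 317, 296 and 329 CPM (edgeR adjusted p = 0.0106, and 0.0599 without C3). Pou3f1, a POU factor of epidermis, fell from 123, 80.2 and 122 to 33.3, 26.1 and 32.6 CPM (log2 fold change -1.82 ± 0.23, edgeR adjusted p = 0.00217). The others called, named after their values were seen, were Grhl1 and Tfap2c as higher and Trp63 and Pou2f3 as lower. Trp63, the master regulator of epidermal progenitors, fell from 1729, 1760 and 1790 to 1140, 939 and 969 CPM (edgeR adjusted p = 0.0176), and its call ended without C2, C3, K2 or K3 (edgeR adjusted p = 0.0683 to 0.0880). The calls of Grhl1 and Tfap2c ended without C3, K2 or K3 (edgeR adjusted p = 0.0606 to 0.0819), and that of Pou2f3 ended without any library but K3 (edgeR adjusted p = 0.0525 to 0.140).

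**Figure D5:**
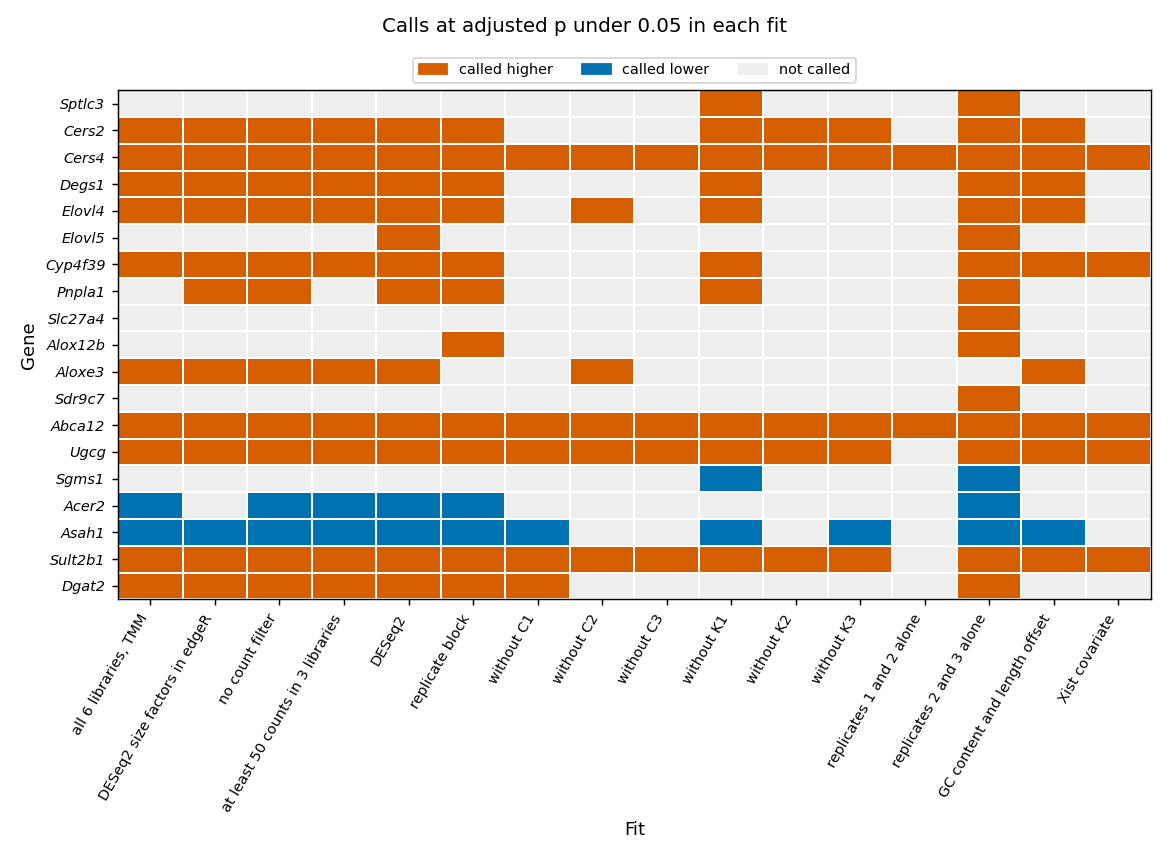
Rows are the 19 lipid genes called in at least 1 fit and columns are the fits, with orange for called higher, blue for called lower and grey for not called. Abca12 and Cers4 are called in all 16 fits, Ugcg and Sult2b1 in 15, and Acer2 in 6.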

How the data were processed

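Counts per gene symbol were deposited by the authors, 1 file per library listing 24453 symbols. The build was mm10, per the submitters' processing notes, and the tools included HTSeq 0.6.1, TopHat2 2.0.13, DESeq2 1.6.3 and Cufflinks 2.2.1; which tool did which step, the annotation and the strand setting are not given in the sources used here. Per the labels' protocols, 10 ng of RNA was amplified before library construction, so low counts may carry amplification noise.

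Here genes were filtered with filterByExpr (minimum count 10, minimum total 15), scaled by TMM (factors 0.927 to 1.04) and tested two-sided with edgeR 4.0.16 in R 4.3.3 by the quasi-likelihood F test, with no covariate (prior count 0.125). Biological variation between libraries, as edgeR's coefficient, came to 38.3%. SE is the absolute log2 fold change divided by the square root of F. Levels per kb use the union of exons in GENCODE M21 (GRCm38), in which all 37 symbols matched. Alternatives were DESeq2 1.42.0, its size factors, other count filters (none, or 50 counts in 3 libraries), a replicate block, subsets of libraries, Xist as a covariate and a loess offset for GC content and exon length (known for 97.8% of tested genes). The scripts were tested on simulated data with 200 changed genes. They called 17 of 85 2-fold changes (20%), 46 of 62 4-fold changes (74.2%) and 50 of 53 16-fold changes (94.3%). They also called 4 unchanged genes. A gene that did not pass was thus not shown to be unchanged. Libraries of a group were not copies of each other (chi-square per degree of freedom at least 29.3). Replicate numbers were not taken as pairs.

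The 37 members, the role groups and the other lists were chosen with earlier results of these data known. The rule for named genes was all 37 members, with every library's value for those called and for the 2 of each role group with the highest mean CPM; up to 3 called genes with the smallest p from each further list; and Ring1 and Rnf2. Library values of most other members are printed too. The list of cholesterol synthesis genes was tested with the others and is not reported here. Figures used matplotlib 3.10.9 in Python 3.11.15.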

Additional observations from a re-analysis of the deposited data

How the results depend on the processing

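The median log2 fold change of the tested lipid genes stayed positive in every fit run (0.54 to 0.74 when 1 library was left out). The number of lipid genes called depended on single libraries: 4 to 10 rose and 0 to 2 fell without any 1 library. With replicates 1 and 2 alone 2 rose and 0 fell, with the Xist covariate 5 rose and 0 fell, and 1 fell with DESeq2 size factors or the GC content and length offset. DESeq2 called 12 higher and 2 lower, and the fit with replicates 2 and 3 alone 15 and 3. Of the other pathway genes 15 rose and 5 fell (17.9% called, against 10.2% of all tested genes). When 1 library was left out 7 to 15 rose and 2 to 5 fell, against 4.12% to 6.26% and 1.13% to 2.85% of all genes. The replicate 1 and 2 libraries gave 5 and 1, against 2.37% and 0.57% of all genes. The replicate 2 and 3 libraries gave 25 and 13, against 10.9% and 7.1%. DESeq2 called 8 lower, against 6.02%, and 3 were lower with the Xist covariate, against 1.17%. The cause of these differences was not tested. Acer1 ranged from -1.05 to 0.22 on the log2 scale when 1 library was left out, and Lipn was at -0.017 with replicates 1 and 2 alone. Over all genes 1512 were called with all libraries, 439 from the replicate 1 and 2 libraries, 2694 from the replicate 2 and 3 libraries, 2535 by DESeq2 and 810 with the Xist covariate; the other counts were 811 (without C3) to 1737 (no count filter). The replicate block called 11 lipid genes higher and 2 lower: Aloxe3 was lost (edgeR adjusted p = 0.0559), Pnpla1 and Alox12b were gained (0.0397 and 0.0360). Deviations of same-numbered libraries correlated at 0.175, 0.228 and 0.0773, the highest value for each library, which is a hint from the data and not part of the design. Lipk and Lipn, with group means of 0.181 to 0.466 CPM, had log2 fold changes with SEs of 1.18 and 1.48, so these data set wide limits on them.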
